A study of Mus musculus with 8 samples.

Results

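The Hox gene clusters were measured in mouse mandibular arches, the tissue that forms the lower jaw, at embryonic day 11.5, on 4 arrays of Alk5 fl/fl controls and 4 arrays of Wnt1-Cre;Alk5 fl/fl mutants. Members were all genes named Hoxa, Hoxb, Hoxc or Hoxd followed by digits only, each read from its brightest probe set among those with exactly 1 symbol. This gave 33 of the 39 Hox genes in the mouse RefSeq table, out of 18194 genes measured: 9 of the Hoxa cluster, 9 of Hoxb, 7 of Hoxc and 8 of Hoxd. The others were not analysed here, among them Hoxb8 and Hoxd4, which share their probe sets with a second symbol. The strain was C57BL/6J and sex was not determined, and both groups carried the floxed Alk5 alleles. Alk5, also named Tgfbr1, is a type I receptor of TGF-beta. Wnt1-Cre recombines in the neural crest lineage, so cells of other origin in the mutant arch keep the gene. No Cre is named for the controls, and effects of Cre and of Alk5 loss cannot be told apart. The samples are whole tissue, and nothing in the labels says that each is a separate embryo or litter, so a p-value here speaks only of the spread among these samples, which may be technical.

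Hox genes encode homeodomain transcription factors that assign identity along the head-to-tail axis. They lie in 4 clusters, and a gene's place in its cluster goes with how far forward it is expressed: genes of low paralog number reach the hindbrain and the pharyngeal arches, and genes of high number stay in the trunk, limb buds and tail. The crest of the mandibular arch is known as the Hox-negative crest of the face. Hoxa2 is the selector of the arch behind it, and Hoxb2 is expressed there and in the hindbrain. Hox proteins bind DNA with the TALE homeodomain proteins Pbx and Meis, and retinoic acid switches on the genes of low paralog number.

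To show what the start of such a gene looks like, RefSeq (GRCm38.p6) windows of 250 bases before the start are printed for 3 members: Hoxa2, which differed most among arrays within its cluster, Hoxd1, which had the largest difference between the groups, and Hoxb1, the neighbour of Hoxb2. The RefSeq table gave windows for 19 of the 33 members and none for Hoxb2. Capitals mark matches, on either strand, to TGATNNAT, the letters of a joint Hox and Pbx site, or to TGACAG, those of a Meis site; no match printed below overlaps another. The Hoxa2 window is chr6:52164832-52165081 (minus strand), the Hoxb1 window chr11:96365508-96365757 (plus strand) and the Hoxd1 window chr2:74762730-74762979 (plus strand).
Hoxa2: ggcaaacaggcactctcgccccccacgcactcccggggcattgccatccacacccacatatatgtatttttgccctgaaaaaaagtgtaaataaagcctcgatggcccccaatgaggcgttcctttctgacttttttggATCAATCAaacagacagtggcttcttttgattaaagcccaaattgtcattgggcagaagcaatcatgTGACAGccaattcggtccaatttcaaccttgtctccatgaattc
Hoxb1: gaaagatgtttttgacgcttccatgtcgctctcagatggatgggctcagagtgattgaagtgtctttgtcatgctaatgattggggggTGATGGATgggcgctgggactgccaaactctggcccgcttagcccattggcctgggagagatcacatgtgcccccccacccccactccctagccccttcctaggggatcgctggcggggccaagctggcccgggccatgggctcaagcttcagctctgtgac
Hoxd1: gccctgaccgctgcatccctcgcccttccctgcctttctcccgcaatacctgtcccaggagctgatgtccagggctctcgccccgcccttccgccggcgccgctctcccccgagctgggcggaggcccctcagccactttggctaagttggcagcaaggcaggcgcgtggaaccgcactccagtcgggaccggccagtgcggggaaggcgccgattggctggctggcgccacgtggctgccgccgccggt
The Hoxa2 window held 1 match to each motif, at 111 to 104 and at 44 to 39 bases before the start. The Hoxb1 window held 1 match to TGATNNAT, at 162 to 155 bases, and the Hoxd1 window none to either. Of all 32851 RefSeq windows of this length, 7.68% held TGATNNAT and 15.9% TGACAG, against 3 and 2 of the 21 windows of Hox members. A palindromic Smad motif, GTCTAGAC, was in 0 of these 21 windows and in 0.167% of all windows, and TATAAA in 2 and in 12.4%. A match is a description of the letters, not a site.

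With 4 arrays a group, precision is limited throughout. The 13 listed markers of mandibular arch mesenchyme all lay above background in both groups (defined in the next paragraph); of these Dlx2 rose (0.56 ± 0.102), Lhx6 (-1.67 ± 0.214), Lhx8 (-1.36 ± 0.147) and Pitx1 (-1.10 ± 0.118) fell, and 9 did not pass the test (log2 fold change ± SE; limma adjusted p of 0.0031 to 0.0253). The log2 value of Tgfbr1 itself was 12.79 ± 0.0844 over controls and 12.98 ± 0.0115 over mutants (SD, n = 4; limma adjusted p = 0.232). Its probe set is not known to lie in the deleted part and so checks nothing. The array of mutant 3 differed from the rest: its values had an SD of 2.42, where the other arrays had 2.52 to 2.56, and it correlated with them at 0.986 to 0.991, where the others correlated with each other at 0.993 to 0.997. Of 12 markers of macrophages and other leukocytes 10 rose, by 0.66 (Fcer1g) to 1.54 (C1qb), the others being Adgre1, Aif1, C1qa, C1qc, Cd68, Csf1r, Ptprc and Tyrobp; Cx3cr1 and Mrc1 did not pass. Their mean log2 level was 7.04 to 7.18 over controls and 7.84 to 8.34 over mutants. Their part in the Hox results was not tested.

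No detection calls were used, so background was read from 71 olfactory and vomeronasal receptor genes, which are known from the nose and not from the jaw. A Hox gene is called above background where its group mean exceeds their 95th percentile, a log2 value of 6.06 in controls and 6.08 in mutants. By this measure 12 of 33 Hox genes were above background in controls and 11 in mutants, 10 of them in both, and 20 lay at background in both groups. Over all genes 69.5% were above it in controls and 70% in mutants. The clusters divided as follows in controls: 4 of 9 Hoxa genes (Hoxa3, Hoxa5, Hoxa7 and Hoxa9), 2 of 9 Hoxb genes (Hoxb2 and Hoxb3), 3 of 7 Hoxc genes (Hoxc5, Hoxc6 and Hoxc9) and 3 of 8 Hoxd genes (Hoxd8, Hoxd9 and Hoxd13). Hoxb4 was above it in mutants only, at 5.84 ± 0.141 in controls and 6.19 ± 0.189 in mutants (SD, n = 4), and Hoxd9 and Hoxd13 in controls only, Hoxd9 by a narrow margin (6.12 and 6.07). No order along the clusters was seen in these counts: in controls 3 of 10 genes of paralog groups 1 to 4 were above background, 5 of 9 of groups 5 to 8 and 4 of 14 of groups 9 to 13. None of groups 1, 10, 11 and 12 was above it in either group.

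**Figure D1:**
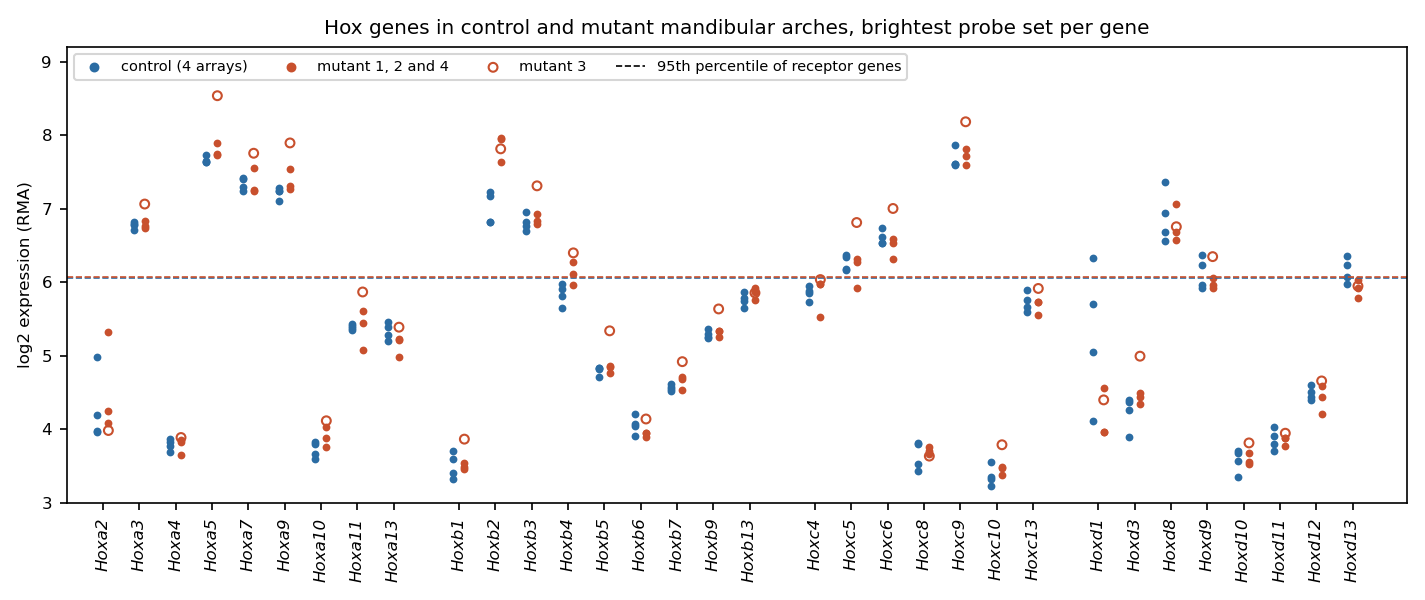
Log2 expression (vertical axis) of the 33 Hox genes, ordered by cluster and paralog number, with 1 point per array (blue, 4 controls; red, mutants; open circle, mutant 3). Dashed lines mark the 95th percentile of the receptor genes at 6.06 (controls) and 6.08 (mutants); 20 of the 33 genes lie at or below it in both groups, and only Hoxb2 has groups that do not overlap.

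The threshold is close to several genes and does not by itself show a transcript. Just above it in controls were Hoxd9 (6.12) and Hoxd13 (6.16), and just below it Hoxc4 (5.85) and Hoxb4 (5.84). Mean values of single receptor genes reached 7.60 in controls (Vmn1r44). Of the 13 Hox genes above background in at least 1 group, 9 had more than 1 probe set, and in 8 of these another probe set lay at background in both groups. Hoxa5 read 7.66 ± 0.0479 in controls on its brightest probe set and 4.60 ± 0.155 on the other (SD, n = 4). Hoxa9 likewise read 7.22 ± 0.0796 and 4.37 ± 0.0996, and the 4 probe sets of Hoxa3 spanned 2.64 in mean log2 value. Each probe set has its own affinity, so such gaps do not say which value is nearer the transcript's level. Hoxb2, Hoxa7, Hoxc9 and Hoxd9 had no second probe set.

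Of the 33 Hox genes 1 rose, Hoxb2, and 0 fell in mutants at an adjusted p under 0.05 (limma, Benjamini-Hochberg over 18194 genes), while 32 did not pass. Over all genes 2.14% passed, 0.835% as rises and 1.31% as falls. At an unadjusted p under 0.05 there were 5 Hox genes, against 13.5% of all genes. The groups did not overlap for 1 Hox gene, against 10.3% of all genes. The median log2 fold change over the Hox genes was 0.08, with 26 of 33 above 0, beside a median of -0.01 over all genes. Of all genes 48.0% were above 0. By cluster the median was 0.11 over Hoxa, 0.15 over Hoxb, 0.04 over Hoxc and -0.03 over Hoxd, and it was 0.10 over paralog groups 1 to 4, 0.07 over groups 5 to 8 and 0.08 over groups 9 to 13. Without mutant 3 the cluster medians were 0.01, 0.04, -0.03 and -0.09, and the paralog medians 0.02, 0.01 and -0.00066, so that those of Hoxc and of groups 9 to 13 changed sign. Mutant 3 moved with these medians: 22 of 33 Hox genes had their highest value on it, against 26.9% of all genes. Without it the Hox median was 0.01 with 18 of 33 above 0, against 48.4% of all genes. The receptor genes moved as the Hox genes did, with 44 of 71 highest on mutant 3. Their median change was 0.07 with 56 of 71 above 0 over all arrays, and -0.01 with 34 of 71 without mutant 3.

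**Figure D2:**
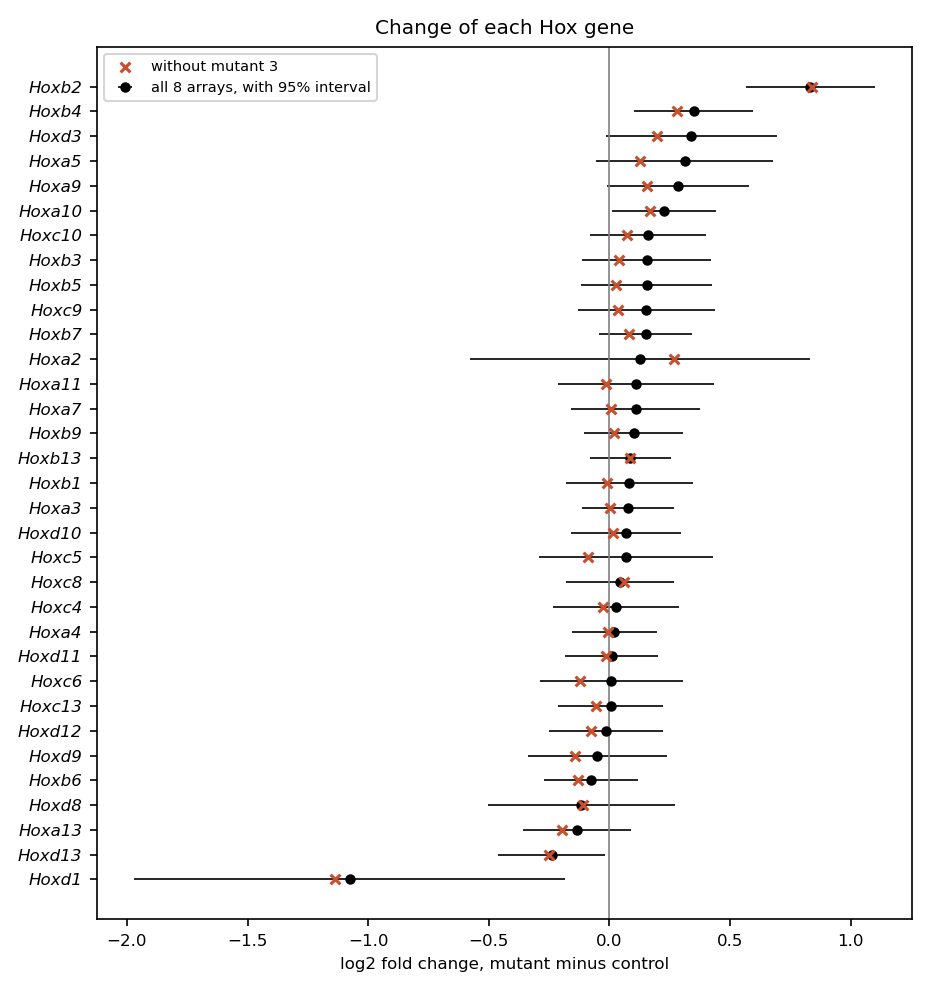
Log2 fold change, mutant minus control (horizontal axis), of each Hox gene over all 8 arrays with its 95% interval from limma (black) and without mutant 3 (red cross). Hoxb2 (0.83) is the gene whose change passed the threshold, Hoxd1 (-1.08) has the widest interval, and most crosses lie to the left of the black points.

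**Figure D3:**
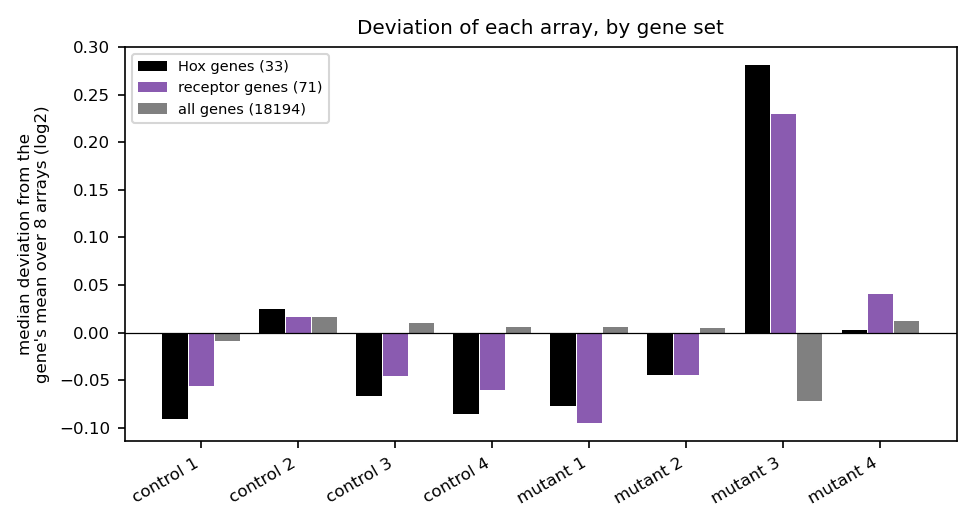
Median deviation (log2, vertical axis) of each array from the gene's own mean over 8 arrays, for the 33 Hox genes (black), 71 receptor genes (purple) and all 18194 genes (grey). On mutant 3 the Hox genes stood at 0.28 and the receptor genes at 0.23, while the median over all genes there was -0.07.

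Hoxb2, a gene of the second paralog group that is expressed in the hindbrain and the arch behind the jaw, was higher in every mutant than in every control. Its controls read 7.22, 6.82, 6.83 and 7.17 and its mutants 7.64, 7.95, 7.82 and 7.96 (log2 value, replicates 1 to 4). The lowest mutant lay above the highest control, and mutant 3 was not the highest. The means were 7.01 ± 0.218 and 7.84 ± 0.149 (SD, n = 4), a log2 fold change of 0.83 ± 0.12 (SE; 95% interval 0.56 to 1.10), or 1.78-fold (limma adjusted p = 0.0104). Mutants lay above controls without overlap in 3.27% of all genes. An exact permutation test, two-sided, gave p = 0.0286, which is the lowest value possible with 70 relabelings. Any groups of this size without overlap give it, so it adds nothing to the lack of overlap. Adjusted over the 4 Hox probe sets tested in this way (Benjamini-Hochberg), it was 0.0571. These probe sets were chosen for their differences, and the p-values are not corrected for that choice. The change was 0.77 to 0.90 when any 1 array was left out, with limma adjusted p-values of 0.0086 to 0.0469; the share of all genes that rose in those fits was 0.467, 0.352, 0.33 and 0.835% without controls 1 to 4 and 0.456, 0.577, 1.8 and 0.374% without mutants 1 to 4. It was 0.87 without both control 1 and mutant 2, arrays that stand apart on trunk and heart markers as described with Hoxa2, and the call was lost (limma adjusted p = 0.0539, where 0.209% of all genes rose). In whole tissue, a change in the number of cells that express a gene and a change in RNA per cell cannot be told apart.

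The neighbours of Hoxb2 in the cluster did not pass the test. Hoxb1, known from the fourth rhombomere, was at background, at 3.51 ± 0.175 in controls and 3.59 ± 0.187 in mutants (SD, n = 4), and its groups overlapped. Hoxb3, known from the hindbrain and the posterior arches, had 2 probe sets that disagreed. The brighter one read 6.70, 6.96, 6.82 and 6.77 in controls and 6.84, 6.93, 7.31 and 6.79 in mutants, so the groups overlapped, with a change of 0.15 ± 0.119 (SE; limma adjusted p = 0.651), or 0.04 without mutant 3. The dimmer one read 4.95, 4.51, 4.49 and 4.96 in controls and 5.76, 7.49, 5.53 and 5.61 in mutants. Here every mutant was above every control, and mutant 2 was far above the other mutants. Its change was 1.37 ± 0.385 (SE), which did not pass when every probe set was tested on its own (limma adjusted p = 0.164 over 34958 probe sets, of which 0.458% rose). The exact permutation p was 0.0286, the value that any groups of this size without overlap give, so it adds nothing to the lack of overlap. Without mutant 2 the change was 0.90 and passed (limma adjusted p = 0.0345, where 0.295% of probe sets rose). The arrays left in that fit all read below the background line (6.06 in controls, 6.08 in mutants). The other leave-one-out fits gave adjusted p-values of 0.116 to 0.453.

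Hoxb4, a gene of the lower hindbrain and neck, read 5.82, 5.65, 5.91 and 5.98 in controls and 5.97, 6.27, 6.40 and 6.12 in mutants. The groups met at 1 point, control 4 against mutant 1. The change of 0.35 ± 0.11 (SE) had the second smallest p of the Hox genes and did not pass (limma adjusted p = 0.179), and the second probe set differed by 0.08. Hoxb5, Hoxb6, Hoxb7, Hoxb9 and Hoxb13 all lay at background, with changes from -0.08 (Hoxb6) to 0.15 (Hoxb5).

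**Figure D4:**
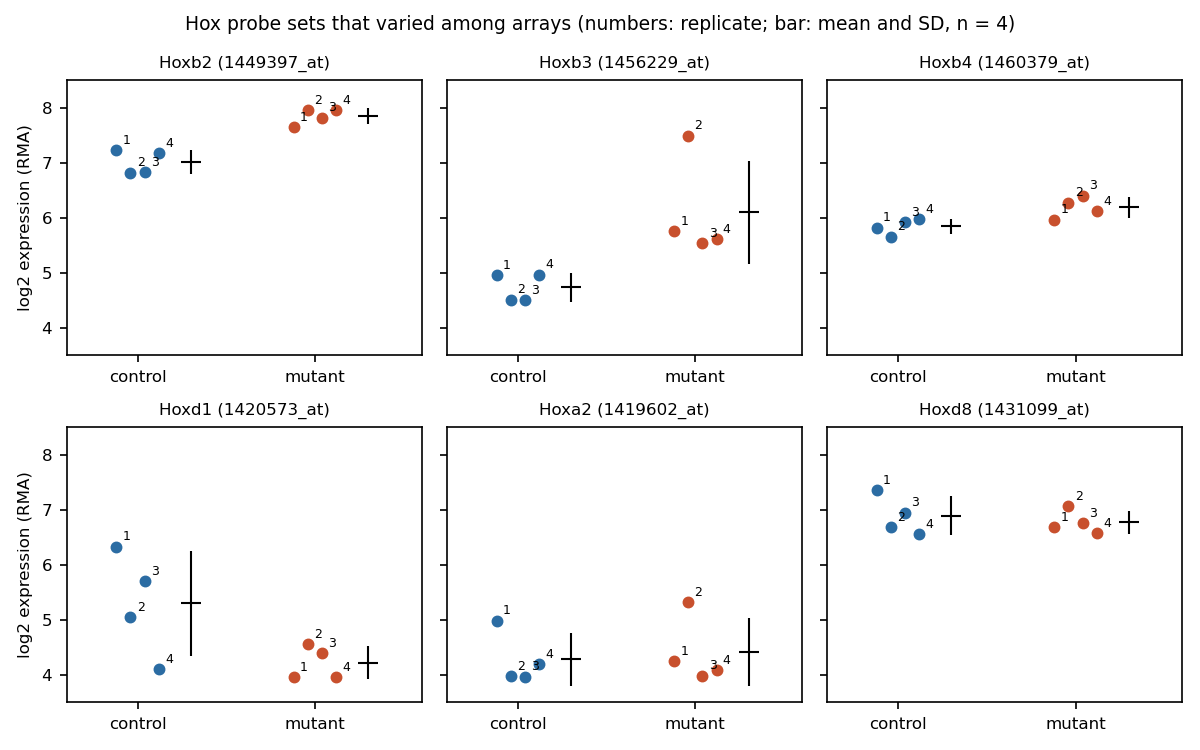
Log2 expression (vertical axis) of 6 Hox probe sets on each array, labelled by replicate number (blue, control; red, mutant; bar, mean and SD, n = 4). Mutants of Hoxb2 lie at 7.64 to 7.96 above controls at 6.82 to 7.22, controls of Hoxd1 spread from 4.11 to 6.33, and Hoxa2 is high on control 1 and mutant 2.

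Hoxd1, the member of the first paralog group in its cluster, had the largest difference of the Hox genes and the largest spread. Controls read 6.33, 5.05, 5.70 and 4.11 and mutants 3.97, 4.56, 4.40 and 3.96. Controls 1, 2 and 3 lay above every mutant, and control 4 lay among the mutants. Both group means were at background, 5.30 ± 0.948 in controls and 4.22 ± 0.306 in mutants (SD, n = 4). The change of -1.08 ± 0.399 (SE; 95% interval -1.97 to -0.18) did not pass (limma adjusted p = 0.263; exact permutation p = 0.0857). Without control 4 it was -1.47 and passed (adjusted p = 0.0294, where 1.96% of all genes fell), and without control 1 it was -0.73 (adjusted p = 0.491). Hoxd1 was highest on control 1 and mutant 2 within the groups. Control 4 was the lowest control for 4 of 7 pharyngeal endoderm markers and the highest for 1, and the lowest for 3 and the highest for 3 of 11 neuronal markers, beside 27.7% and 28.3% of all genes. It was also the lowest for 5 of 12 leukocyte markers and 3 of 7 trunk and limb markers, and the highest for 0 of both. Among the 13 arch mesenchyme markers it was the lowest for 1 and the highest for 5. The mean level of the endoderm markers was 8.30 to 9.01 in controls and 7.71 to 8.19 in mutants, with a median change of -0.25 and 0 of 7 above 0. That of the neuronal markers was 6.27 to 6.49 and 6.08 to 6.31, and their median change was 0.07 with 7 of 11 above 0. Without mutant 3 the neuronal median was -0.04 with 3 of 11 above 0, and the endoderm median was -0.16 with 0 of 7. The part of any of these markers in the Hoxd1 result was not tested. Of the neuronal and endoderm lists 1 gene each fell, Tubb3 (-1.67 ± 0.249) and Pax9 (-1.99 ± 0.293), with 10 and 6 not passing (± SE, limma adjusted p = 0.0126 and 0.0118). The samples are whole tissue, so these values do not show in which cells either gene fell.

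Hoxa2, the selector of the second arch, lay at background in both groups, at 4.28 ± 0.479 in controls and 4.41 ± 0.617 in mutants (SD, n = 4; change 0.13 ± 0.315, SE; limma adjusted p = 0.9). Controls read 4.98, 3.98, 3.97 and 4.20 and mutants 4.25, 5.32, 3.98 and 4.08, so that 1 array of each group, control 1 and mutant 2, stood above the other 6. Hoxd8, a trunk gene, read 7.36, 6.68, 6.95 and 6.56 in controls and 6.69, 7.07, 6.76 and 6.57 in mutants. The groups overlapped (change -0.12 ± 0.173, SE; limma adjusted p = 0.82). It was highest on the same arrays within each group, and its dimmer probe set showed the same order, at 6.29 and 5.84. The dimmer Hoxb3 probe set was also highest on mutant 2, but not on control 1.

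Those 2 arrays were high for some markers of trunk mesoderm and heart as well. Meox1, a somite gene, read 9.33 on control 1 against 7.68 to 8.06 on the other controls, and 8.73 on mutant 2 against 7.27 to 7.99 on the other mutants. Tnnt2, a troponin of heart and embryonic muscle, read 8.44 against 4.99 to 6.41, and 7.54 against 5.35 to 6.85. The mean of 6 heart markers was 6.55 on control 1 against 5.67 to 5.90 on the other controls and 6.38 on mutant 2 against 5.79 to 6.14; that of 7 trunk and limb markers was 8.20 against 7.43 to 7.75 and 7.49 against 6.88 to 7.25. Within their groups, 4 of 7 trunk and limb markers (Meox1, Meox2, Tbx4 and Tbx5) and 3 of 6 heart markers (Myh6, Myl7 and Tnnt2) were highest on these 2 arrays, against 7.16% of all genes and 3 of 33 Hox genes (Hoxa2, Hoxd1 and Hoxd8; 9.09%). Uncx, Myh6 and Nppa were at background in both groups. Of the trunk list Meox2 fell (-1.998 ± 0.341) and 6 did not pass, and of the heart list Myl7 rose (0.43 ± 0.0848) and 5 did not pass (± SE; limma adjusted p = 0.021 and 0.0353). Whether tissue from outside the arch came with these 2 samples was not tested.

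**Figure D5:**
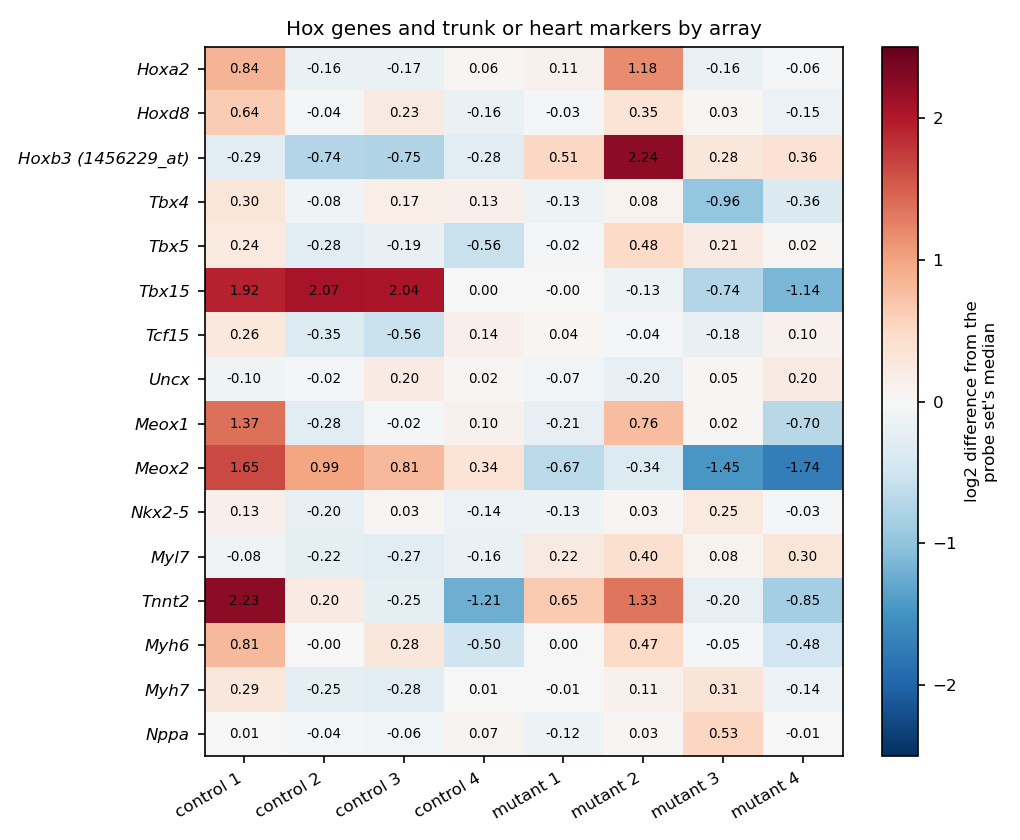
Difference of each array (columns) from the probe set's median over 8 arrays (log2, colour and printed value) for 3 Hox probe sets and all 13 markers of trunk and limb mesoderm and of heart muscle. Control 1 and mutant 2 are both above the median for Hoxa2 (0.84 and 1.18), Hoxd8 (0.64 and 0.35), Meox1 (1.37 and 0.76) and Tnnt2 (2.23 and 1.33).

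The other genes of paralog groups 3 and 4 did not pass the test. Hoxa3, which patterns the third arch and its organs, read 6.78, 6.79, 6.81 and 6.71 in controls and 6.74, 6.83, 7.06 and 6.77 in mutants. Its groups overlapped with mutant 3 highest, the change was 0.08 (0.0038 without mutant 3), and all 4 of its probe sets differed by 0.08 to 0.23. Hoxd3 was at background and differed by 0.34 ± 0.158 (SE; limma adjusted p = 0.397), with its highest value, 4.995, on mutant 3, and by 0.20 without that array. Hoxa4 and Hoxc4 differed by 0.02 and 0.03.

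Genes of the neck and upper trunk, paralog groups 5 to 8, gave 0 calls among 9. Hoxa5 read 7.65, 7.64, 7.63 and 7.73 in controls and 7.72, 7.75, 8.54 and 7.89 in mutants. The high value was that of mutant 3, and the change was 0.31 with it and 0.12 without it. Hoxa7 read 7.25, 7.43, 7.30 and 7.40 in controls and 7.24, 7.25, 7.76 and 7.56 in mutants. Hoxc5 read 6.18, 6.34, 6.37 and 6.17 in controls and 5.93, 6.31, 6.81 and 6.28 in mutants, and Hoxc6 read 6.61, 6.73, 6.54 and 6.54 in controls and 6.32, 6.54, 7.004 and 6.59 in mutants. In all 3 the groups overlapped and mutant 3 was highest. Their changes were 0.11, 0.07 and 0.01, and 0.01, -0.09 and -0.12 without mutant 3.

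Genes of paralog groups 9 to 13, which pattern the lower trunk, limb buds and tail, gave 0 calls among 14. Hoxc9 read 7.61, 7.86, 7.62 and 7.60 in controls and 7.72, 7.59, 8.18 and 7.81 in mutants, a change of 0.15 ± 0.127 (SE; limma adjusted p = 0.675), or 0.03 without mutant 3, which had the highest value. Hoxa9 read 7.24, 7.10, 7.29 and 7.24 in controls and 7.31, 7.27, 7.90 and 7.54 in mutants; the groups overlapped, and the change was 0.29, or 0.15 without mutant 3. Hoxd13, which shapes digits and genitalia, read 6.24, 6.36, 5.97 and 6.07 in controls and 5.92, 5.79, 5.95 and 6.03 in mutants on its brighter probe set (-0.24 ± 0.0984, SE; limma adjusted p = 0.32), and its dimmer one differed by 0.08 the other way. Hoxd9, a limb and trunk gene, read 6.37, 6.24, 5.92 and 5.96 in controls and 5.93, 6.05, 6.35 and 5.96 in mutants; the groups overlapped, and it differed by -0.05, or by -0.14 without mutant 3. Hoxa10, with the smallest p of the Hoxa cluster, read 3.80, 3.83, 3.60 and 3.67 in controls and 3.76, 4.03, 4.12 and 3.88 in mutants (change 0.23; adjusted p = 0.343), and Hoxc10, with the smallest p of the Hoxc cluster, read 3.36, 3.56, 3.23 and 3.33 in controls and 3.47, 3.37, 3.79 and 3.48 in mutants (0.16; adjusted p = 0.591). Both were at background, as were Hoxa11, Hoxa13, Hoxb9, Hoxb13, Hoxc13, Hoxd10, Hoxd11 and Hoxd12. Over the arrays without mutant 3, the widest range of a gene was 0.57 in groups 9 to 13 and 0.80 in groups 5 to 8. In groups 1 to 4, 3 genes (Hoxa2, Hoxb2 and Hoxd1) ranged over more than 1, as did 644 of all 18194 genes. These ranges span controls and mutants, so they include the difference between them.

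Antisense transcripts of the clusters were read from their own probe sets. Hoxb5os stood at 6.05 ± 0.106 in controls, just below the background line of 6.06 (SD, n = 4). In mutants it stood at 6.24 ± 0.261, above the line of 6.08. Its highest value was 6.63, on mutant 3, where the other mutants read 6.09 to 6.14. Hoxa11os and Hoxd3os1 lay at background in both groups. None of the antisense probe sets had groups that did not overlap. The probe sets listed with 2 symbols differed by -0.01 (Hoxb8 and Hoxb7), 0.16 and -0.10 (both Hoxd4 and Hoxd3). Of 11 further genes in or beside the clusters, such as Evx1 and Skap2, 0 passed at an adjusted p under 0.05. The smallest p was at Snx10 (limma adjusted p = 0.582). The median change of the 11 was 0.06 with 7 above 0, or -0.0002 with 5 above 0 without mutant 3.

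Among the TALE proteins that bind DNA together with Hox proteins, 0 of 8 measured passed, with a median change of 0.20, beside -0.01 over all genes. Meis1, a DNA-binding partner of Hox and Pbx proteins, had the smallest p. It read 9.12, 8.06, 8.42 and 9.44 in controls and 10.08, 10.105, 9.84 and 9.82 in mutants. Every mutant lay above every control, and the change was 1.20 ± 0.264 (SE; limma adjusted p = 0.0534), but 0.60 over the mean of all Meis1 probe sets (adjusted p = 0.0599). Meis2 had group means of 11.70 in controls and 12.17 in mutants (0.47 ± 0.105, SE; limma adjusted p = 0.0547), and its groups did not overlap either. Each of the 2 passed under 7 of 17 alternative settings, with adjusted p-values of 0.0116 to 0.179 for Meis1 and 0.00619 to 0.205 for Meis2.

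In the retinoic acid pathway, 16 genes were measured: 2 rose, 2 fell and 12 missed the threshold, and their median change was -0.10. The binding protein genes Crabp1 (0.94 ± 0.0815) and Crabp2 (0.33 ± 0.0664) rose, and Aldh1a2 (-1.16 ± 0.214), which makes retinoic acid, and Cyp26b1 (-1.47 ± 0.227), which degrades it, fell (± SE; limma adjusted p = 0.00124, 0.0402, 0.0266 and 0.0141). Crabp1 passed under all 17 alternatives, Crabp2 under 8, Aldh1a2 under 11 and Cyp26b1 under 13. Leaving out control 2, control 3 or mutant 4 ended the calls of Crabp2, Aldh1a2 and Cyp26b1 (adjusted p of 0.0504 to 0.167), as did control 1 or mutant 1 for Crabp2 and Aldh1a2 (0.0614 to 0.114) and mutant 2 for Crabp2 (0.0835). Of 6 regulators known to act upstream of Hox genes or along the axis, Gbx2, a gene of the anterior hindbrain, rose by 1.84 ± 0.313 (SE; limma adjusted p = 0.021) and 5 did not pass. The Gbx2 call was lost without control 1, 2 or 3 or mutant 1 or 4 (limma adjusted p of 0.0553 to 0.082). Its control mean, 6.18, was close to the background line of 6.06, and controls 2 and 3 (5.47 and 5.84) lay below that line. The hindbrain gene Egr2, which activates Hoxb2 in the embryo, was at background, at 4.45 ± 0.0299 in controls and 4.41 ± 0.213 in mutants (SD, n = 4), as were Cdx1, Cdx2 and Cdx4. Of 9 markers of hindbrain and spinal progenitors 0 passed, with the smallest p at Olig2 (-0.44, limma adjusted p = 0.173). Their median change was 0.04, and their mean level was 6.00 to 6.18 over controls and 6.02 to 6.06 over mutants. Above background were 4 of the 9 in controls and 5 in mutants, which limits what this list can show. Olig2 was at background in both groups, with means of 3.99 and 3.55. Of 21 Polycomb and Trithorax genes, which hold Hox clusters silent or active, 0 passed, with a median change of -0.02 and the smallest p at Jarid2 (limma adjusted p = 0.341). Of 8 blood progenitor markers, 1 rose, Gata2 (1.31 ± 0.109, SE, limma adjusted p = 0.00101), and 7 did not pass. The median change of these 8 was -0.04, with 3 above 0.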

How the data were processed

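Total RNA of 8 samples was measured on Affymetrix arrays, and the values were used as the authors deposited them, as log2 expression per probe set. Per the submitters' processing notes they come from RMA (no version given there), a method that subtracts background, aligns the arrays and combines probes. It shrinks differences at low signal, where most Hox probe sets lie. Probe sets with 1 symbol in the platform annotation (34958 of 45101) were kept; 932 with several and 9211 with none were left out. The probe set with the greatest average signal stood for its gene, for 18194 genes. Mutants and controls were compared with limma (version 3.58.1, under R 4.3.3; lmFit, then eBayes) with no covariate, and adjusted p-values are Benjamini-Hochberg values over the whole table. The procedure was tested on simulated data. Single values were also compared by exact permutation.

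Background was the 95th percentile of the group means of 71 olfactory and vomeronasal receptor genes. Array values are given for members above it in a group, members past the threshold and the member with the smallest p of each cluster; of other lists, members past the threshold or else that with the smallest p were named. Hoxa2, the dimmer Hoxb3 probe set and other genes outside that rule were named after their values were seen. Members and lists were chosen with earlier results of these data known. Alternatives were other thresholds, filters, scalings, variance models, array weights, probe set rules, a replicate block and leaving out arrays. Replicate numbers were not taken as pairs, since they are numbers only in the labels and deviations of same-numbered arrays correlated at -0.12 to 0.41.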

Additional observations from a re-analysis of the deposited data

Results flagged for a closer look

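Of 36 groups of 4 arrays looked at for a value far from the rest, 2 held one, and chance alone gives about 1 in 20. Control 2 read 7.865 for Hoxc9, where the other controls read 7.60 to 7.62. Mutant 2 read 7.489 on the dimmer Hoxb3 probe set, where the other mutants read 5.53 to 5.76. That probe set, which is not the one that stands for the gene, differed between the groups by 1.37 on the log2 scale with no overlap, while the brighter one differed by 0.15.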

How the results depend on the processing

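The count of 1 Hox gene past the threshold was the same under 15 of 18 alternatives. It was 0 among the 2 Hox genes left when only genes above the median level were tested, since Hoxb2 was filtered out. It was also 0 without control 1 and mutant 2 together, an alternative added after seeing the data. It was 2 without control 4, when Hoxd1 also passed, and 1 to 2 over all fits that left out 1 array. With the replicate number as a block it was 1 and the adjusted p of Hoxb2 was 0.0276; the block ended the call of Crabp2 (adjusted p 0.123), and those of Crabp1, Aldh1a2, Cyp26b1 and Gbx2 held. The median change of 0.08 ranged from 0.01 to 0.12 when 1 array was left out and was 0.23 over the 2 genes above the median level. The 12 Hox genes above background in controls and 11 in mutants became 2 and 3 with the median of all genes as the threshold, 8 and 7 with the 99th percentile of the receptor genes, 16 and 15 with the 90th, and 16 and 16 with the lower quartile of all genes; over fits without 1 array they were 11 to 12 in both groups. Hoxb2 kept its direction in the 16 alternatives that measured it. Most Hox probe sets were dim, which limits the changes that can be seen.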
